A study of Mus musculus with 4 samples.

Results

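The 8 genes described here make up the core of MHC class I antigen presentation in the mouse, and they were taken by symbol from the 27998 genes counted in CD45+ cells of the nasal mucosa. They were the classical heavy chains H2-K1 and H2-D1, the Q region heavy chain H2-Q10, the light chain B2m, the peptide transporter subunits Tap1 and Tap2, the loading factor Tapbp and the transactivator Nlrc5. All 8 were found once each, and levels of 40 genes of a wider class I pathway list that contains them were read beside them.

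Class I molecules are built from a heavy chain, beta-2 microglobulin and a short peptide that the proteasome cuts from proteins of the cell, and they show this peptide to CD8 T cells and NK cells. The TAP transporter carries the peptides into the endoplasmic reticulum, tapasin (Tapbp) holds the empty heavy chain next to TAP, and NLRC5 switches on the heavy chain, B2m and TAP genes in the nucleus. H2-Q10 differs from its classical relatives in that it is secreted and is known mainly as a product of the liver.

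The 4 groups compared were C57BL/6 mice aged 8 weeks, with 1 single-cell library each: Vehicle, Vehicle-OVA, Ribavirin, Ribavirin-OVA, the order in which values of the 4 libraries are given. OVA is ovalbumin, which in the study's model of allergic rhinitis is injected with alum and then given into the nose, and ribavirin is an antiviral nucleoside analogue that the series describes as a spray. Its dose and timing and the number of mice per library are not given in the sources used here. The labels name magnetic CD45 enrichment, whereas the design text names flow sorting. With 1 library per group no difference between groups has a replicate check, no test was made, and group and library cannot be told apart.

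The libraries held 79132 barcodes, of which 69378 were kept, with medians of 3316 to 5084 UMIs (unique molecular identifiers, each 1 captured transcript) per kept cell. Between 196 and 404 barcodes per library, or 1.43% to 1.90%, also occurred in another library. The kept cells formed 37 clusters, which were named by marker genes, and 88.2% to 97.0% of cells fell in leukocyte classes. Ptprc, which encodes CD45, stood at 1617 to 2163 CPM in neutrophil-like cells, 596 to 729 CPM in macrophage-like cells and 33.3 to 93.6 CPM in epithelial-like cells. CPM is the number of UMIs of a gene per 1000000 UMIs of a class in a library. Intervals are exact 95% intervals and cover counting error alone. Values of different genes were not scaled by transcript length, so genes were compared with each other through ratios across classes and libraries.

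The neutrophil-like class held 7072 cells in Vehicle, 10705 in Vehicle-OVA, 6612 in Ribavirin and 2611 in Ribavirin-OVA, with median UMIs per cell of 2308, 2817, 2778.5 and 2932. Its cells did not come from the same clusters in each library. Cluster 3 (4830 of 5224 cells) and cluster 8 (2841 of 3525 cells) were mostly Vehicle-OVA, cluster 9 (2643 of 3041 cells) was mostly Ribavirin, and clusters 1 and 2 held most Vehicle cells. Among macrophage-like cells, clusters 4 and 7 held most cells without OVA and cluster 6 held most cells with OVA.

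The 3 heavy chain genes lie in the MHC on chromosome 17. H2-K1 (ENSMUSG00000061232) is at chr17:33996017-34000347 on the minus strand, H2-D1 (ENSMUSG00000073411) at chr17:35262730-35267499 on the plus strand and H2-Q10 (ENSMUSG00000067235) at chr17:35470089-35474563 on the plus strand (GRCm38, GENCODE M21). The same stretch before the RefSeq start of each gene is shown (GRCm38.p6). In capitals are GGGGATTCCCC, the kappaB site of enhancer A, and GTTTCACTTC, the interferon-stimulated response element. Both strings were copied from the H2-K1 stretch, so its own match was fixed in advance. A missing match in another gene means only that its letters differ from those of H2-K1. Whether these letters bear on the levels over cell classes was not tested.
H2-K1, chr17:34000429-34000458, minus strand: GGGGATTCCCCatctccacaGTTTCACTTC
H2-D1, chr17:35262923-35262952, plus strand: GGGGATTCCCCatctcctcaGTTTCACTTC
H2-Q10, chr17:35469913-35469942, plus strand: gaggactccccatctccccaGTTTCACTTC
The stretches begin 111, 171 and 176 bases before the RefSeq start of each gene. For H2-D1 that start lies 364 bases into the GENCODE gene given above, so its stretch is inside the annotated gene, whereas both starts coincide for H2-K1 and H2-Q10. Of 30 bases, H2-K1 had 29 and H2-Q10 had 27 in common with H2-D1, and the kappaB letters were not matched in the H2-Q10 window. Aligned over the 250 bases before each RefSeq start, H2-D1 and H2-Q10 were 80.4% identical. H2-K1 was 48.1% identical with H2-D1 and 48.7% with H2-Q10. Searched on both strands of 32851 promoters, each the 250 bases before a start and some of the same gene, GGGGATTCCCC occurred in 0.0304% and GTTTCACTTC in 0.11%. TGACG, the X2 core through which NLRC5 complexes act, occurred in 17.8% of promoters and was present for H2-K1, H2-D1, B2m and Tap1. CCAATCA, the letters of the Y box, occurred in 7.23% and was present for H2-D1 and Tap1. In H2-D1 it lay 53 to 47 bases before the start, after TGACG at 101 to 97. In Tap1 it lay at 222 to 216, ahead of TGACG at 86 to 82, so the order of the H2-D1 letters was not kept. The RefSeq start of Tapbp lies 3579 bases into its GENCODE gene, so the bases before the annotated start were not searched, and Tap2 and Nlrc5 had no entry. A match of letters is a description and does not show that a factor was bound.

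Paralogs can share reads, so their transcripts were compared. Of the 90-base windows of each gene's longest coding transcript, 0.131% for H2-K1, 5.46% for H2-D1 and 3.102% for H2-Q10 also occurred in a transcript of another gene. None did within the last 500 bases, where reads of a 3′ library lie, and H2-Q10 shared no window with H2-K1 or H2-D1.

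H2-Q10 was found mainly in neutrophil-like cells, where it stood at 320 CPM (312 to 328) in Vehicle, 165 CPM (161 to 169) in Vehicle-OVA, 302 CPM (295 to 309) in Ribavirin and 257 CPM (247 to 268) in Ribavirin-OVA. The lowest of these values was above the highest of any other class with at least 50 cells in all 4 libraries, 21.99 CPM in NK-like cells of Vehicle-OVA. Monocyte-like cells came next by the median over libraries, with 19.2, 15.3, 17.3 and 12.9 CPM, and their range overlapped with those of NK-like and T cell-like cells. Macrophage-like cells had 3.02, 8.93, 4.98 and 4.73 CPM.

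Neutrophil-like cells carried 90.02% of all H2-Q10 UMIs in Vehicle, 90.9% in Vehicle-OVA, 88.5% in Ribavirin and 83.3% in Ribavirin-OVA. The same cells carried 13.1%, 37.7%, 14.3% and 10.9% of the UMIs of all genes, and 5.97%, 19.7%, 7.03% and 5.90% of H2-K1 UMIs. Thus the class was over-represented for H2-Q10 and under-represented for H2-K1 in each library.

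**Figure D1:**
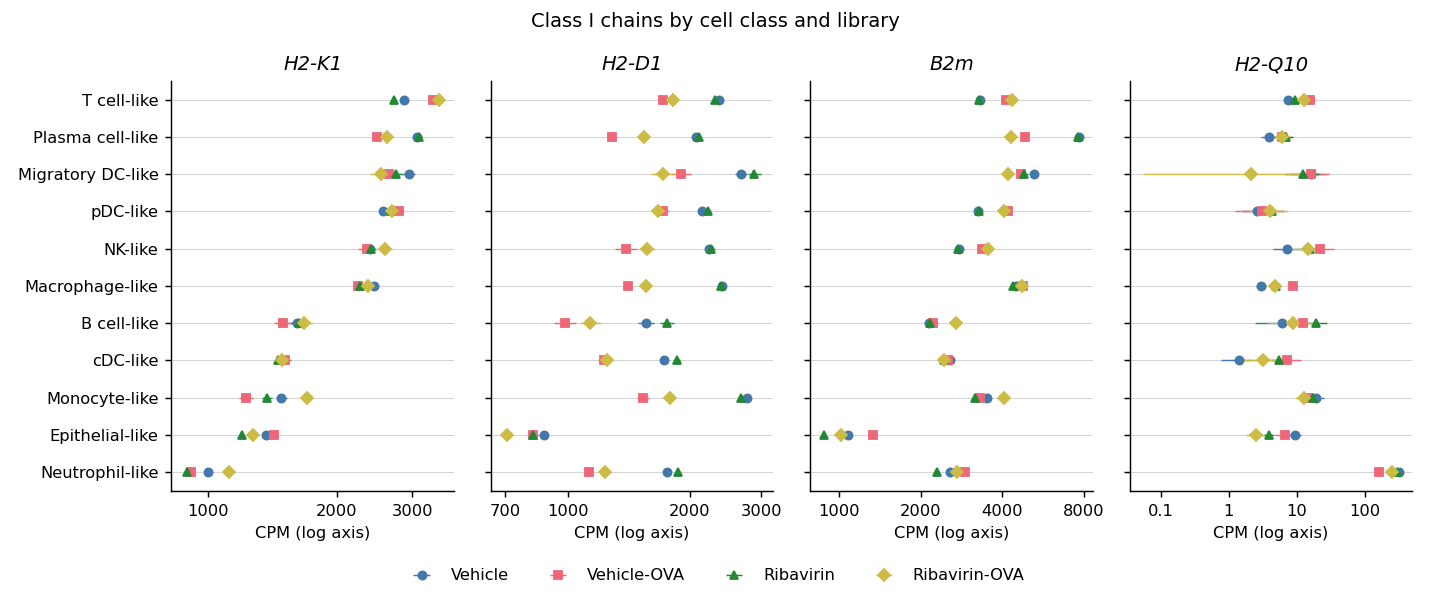
Level of H2-K1, H2-D1, B2m and H2-Q10 (x, CPM on log axes that differ between panels) in 11 cell classes (y, ordered by the median of H2-K1), 1 point per library with its exact 95% Poisson interval. Of these classes, neutrophil-like cells were lowest for H2-K1, at 893 to 1123 CPM, and highest for H2-Q10, at 165 to 320 CPM.

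In single cells the H2-Q10 signal was shallow but not confined to a few barcodes. At least 1 H2-Q10 UMI was seen in 43.2%, 28.4%, 48.6% and 40.02% of neutrophil-like cells (Vehicle, Vehicle-OVA, Ribavirin and Ribavirin-OVA), and a single cell held at most 13, 13, 14 and 11. After thinning each cell to 1000 UMIs, which left out 184, 587, 0 and 185 shallower cells, the shares were 25.8%, 13.7%, 25.4% and 21.7%. In macrophage-like cells, which had median depths of 8484 to 9485 UMIs, they were 0.313%, 1.17%, 0.494% and 0.511% thinned (120, 250, 0 and 133 cells left out) and 2.45%, 6.68%, 4.21% and 3.73% unthinned. Of neutrophil-like cells with an H2-Q10 UMI, 0.809% to 2.68% had no UMI of H2-K1 or H2-D1.

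Set against H2-K1 and H2-D1, H2-Q10 made up 10.4% of the UMIs of the 3 genes in neutrophil-like cells of Vehicle, 7.47% in Vehicle-OVA, 9.83% in Ribavirin and 9.82% in Ribavirin-OVA, a mean of 9.38% ± 1.30 (SD, n = 4 libraries). In macrophage-like cells the share was 0.134% ± 0.0781 and in T cell-like cells 0.220% ± 0.0704 (SD, n = 4 libraries each). The ranges over libraries did not overlap between neutrophil-like cells and either class. Across the other 12 classes, with 1 to 4 libraries each, the mean share ran from 0.0767% in pDC-like cells to 0.449% in monocyte-like cells, with olfactory neuron-like cells apart at 1.66% ± 1.73 (n = 3 libraries).

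The share varied among the 8 neutrophil-like clusters, and is given as the mean ± SD over the libraries with at least 50 cells in the cluster (n = 4, or n = 3 for clusters 3 and 9). The share was 14.8% ± 1.19 in cluster 14 (led by Retnlg, S100a8 and Mmp8), 12.7% ± 1.92 in cluster 9 (S100a9, S100a8 and G0s2) and 11.9% ± 1.11 in cluster 1 (Cxcr2, Mmp9 and S100a9). Cluster 17, led by the interferon-induced genes Rsad2 and Slfn4 and by Cxcr2, had 8.45% ± 0.976. Lower shares were found in cluster 2 (S100a9, Siglecf and S100a8), at 7.00% ± 1.08, cluster 3 (Cxcl3, Irg1 and Gm5483), at 6.95% ± 0.952, and cluster 8 (Il1rn, Hcar2 and Gm5483), at 6.62% ± 1.39, and these 3 overlapped over libraries. The lowest mean, 3.38% ± 1.35, was in cluster 20, whose leading genes Ngp and Camp encode granule proteins made by immature neutrophils, followed by Retnlg. With UMIs summed over libraries, the highest cluster of another class was the olfactory neuron-like cluster 25, at 1.62%. Cluster 2 held the most Siglecf, at 623 CPM. Its 9 eosinophil markers, 3 of them at 0 UMIs, summed to 7.42 CPM, beside 63038 CPM for the neutrophil markers. Epx, an eosinophil peroxidase, had 0 UMIs in every neutrophil-like cluster, whereas Prg2, another eosinophil marker, had 3 to 23.

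**Figure D2:**
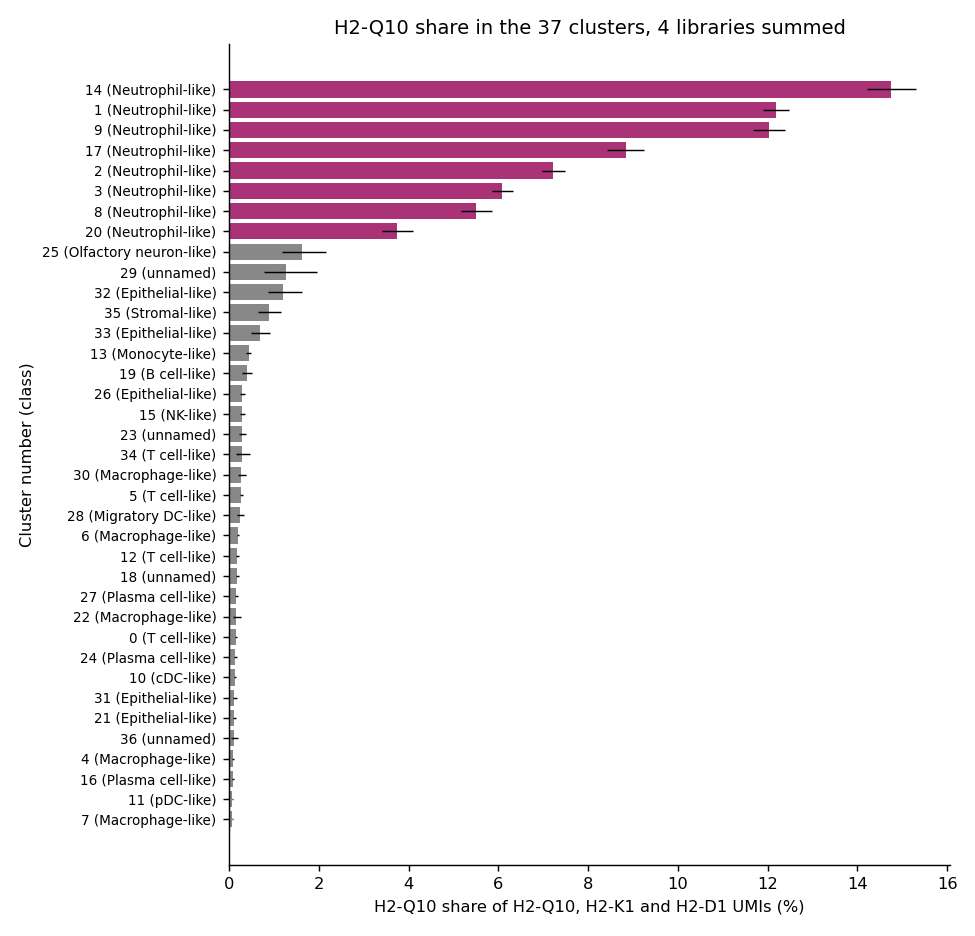
H2-Q10 share of the summed UMIs of H2-Q10, H2-K1 and H2-D1 (x, %) in each of the 37 clusters (y, number and class) with exact 95% binomial intervals. The 8 neutrophil-like clusters, in purple, ran from 3.74% to 14.7%, and the highest other cluster was at 1.62%.

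In levels, H2-Q10 ran from 55.1 ± 23.998 CPM in cluster 20 to 487 ± 92.3 CPM in cluster 14 (SD, n = 4 libraries each). H2-K1 and H2-D1 did not follow the same order. In cluster 14 H2-K1 was 693 ± 128 CPM and H2-D1 was 2115 ± 428 CPM, whereas in cluster 17 both were high, at 1651 ± 329 and 2509 ± 662 CPM (n = 4 libraries each). Cluster 17 also held the most Nlrc5, 85.4 ± 11.9 CPM, and the most Tap2, 192 ± 49.8 CPM, whereas cluster 20 had 8.37 ± 3.20 CPM of Nlrc5.

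H2-Q10 UMIs outside neutrophil-like cells were set beside S100a8, a neutrophil calgranulin whose RNA is very abundant. In the other 10 classes with at least 50 cells in each library, H2-Q10 stood at 0.441% to 13.3% of its neutrophil-like level and S100a8 at 0.195% to 9.30%. The relative level of H2-Q10 was the higher in 39 of 40 class and library pairs, the exception being monocyte-like cells of Vehicle-OVA, with a median ratio of 2.73. Some pairs rest on few H2-Q10 UMIs, such as 7 in B cell-like cells of Vehicle and 1 in migratory DC-like cells of Ribavirin-OVA. For macrophage-like cells H2-Q10 was at 0.945%, 5.42%, 1.65% and 1.84% (Vehicle, Vehicle-OVA, Ribavirin and Ribavirin-OVA) and S100a8 at 0.611%, 2.57%, 0.635% and 0.518%. Both were highest in Vehicle-OVA, the library with the most neutrophil-like cells, and the part of free neutrophil RNA in the low H2-Q10 values was not tested.

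**Figure D3:**
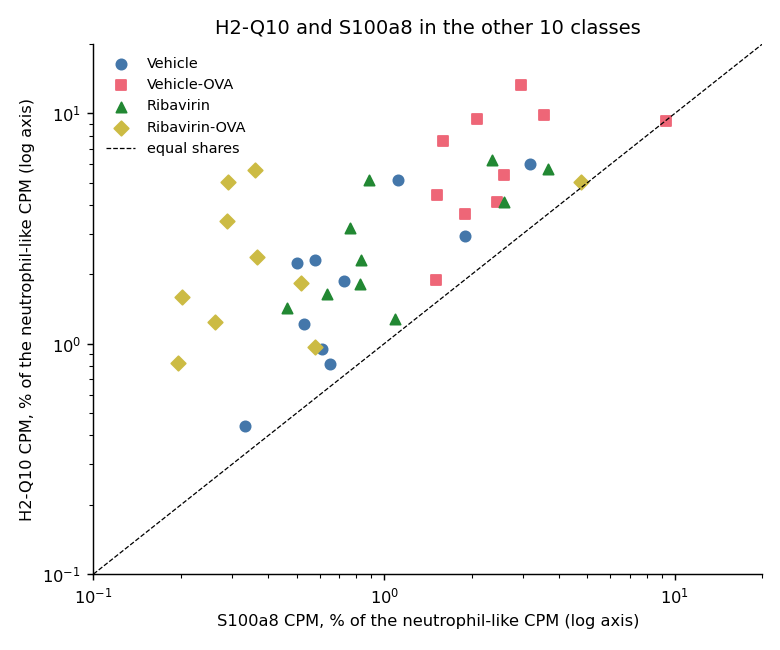
H2-Q10 (y) against S100a8 (x), each as % of its CPM in neutrophil-like cells of the same library, in the other 10 classes (log axes, 1 point per class and library, dashed line at equal shares). Of 40 points, 39 lie above the line, and the libraries overlap on the S100a8 axis, with Vehicle-OVA points from 1.51% to 9.30%. Counting intervals are not drawn, and some points rest on few H2-Q10 UMIs.

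The classical heavy chains showed another pattern. Among the 11 classes with at least 50 cells in each library, H2-K1 was lowest in neutrophil-like cells, with 1001, 916, 893 and 1123 CPM over the 4 libraries, below every library of the next class, epithelial-like cells. It was highest by median in T cell-like cells, with 2873, 3355, 2722 and 3460 CPM, a range that overlapped with that of plasma cell-like cells. H2-D1 in neutrophil-like cells was 1760, 1127, 1875 and 1236 CPM, a range that overlapped with those of B cell-like and cDC-like cells, and among the 11 classes the gene was lowest in epithelial-like cells, at 708 to 876 CPM.

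B2m, ENSMUSG00000060802, lies at chr2:122147686-122153083, and Nlrc5, ENSMUSG00000074151, at chr8:94434356-94527272. Tap1 (ENSMUSG00000037321, chr17:34187553-34197225), Tap2 (ENSMUSG00000024339, chr17:34203527-34216321) and Tapbp (ENSMUSG00000024308, chr17:33915899-33929292) lie in the MHC near H2-K1, on the plus strand. By the median over libraries, and among the same 11 classes, Tap1 ranked from epithelial-like cells (40.002 to 83.6 CPM) up to migratory DC-like cells (227 to 322 CPM), with neutrophil-like cells at 120 to 147 CPM. Tap2 was highest in T cell-like cells, with 143, 192, 139 and 197 CPM, and Tapbp and Nlrc5 in migratory DC-like cells, with 333 to 560 and 58.3 to 125 CPM. B2m was highest in plasma cell-like cells, whose 2 libraries without OVA, at 7711 and 7599 CPM, were apart from those with OVA, at 4865 and 4315 CPM, and came mostly from another cluster. Neighbouring classes in the order of medians overlapped over libraries, except that H2-Q10 in neutrophil-like cells was apart from the next class, H2-K1 was apart between macrophage-like and B cell-like and between epithelial-like and neutrophil-like cells, H2-D1 and B2m between B cell-like and epithelial-like cells, and B2m between macrophage-like and T cell-like cells.

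Neutrophil-like over macrophage-like cells, the mean log2 ratio over the 4 libraries was 5.65 ± 1.05 for H2-Q10 (18.5-fold to 106-fold), -1.25 ± 0.12 for H2-K1 (0.395 to 0.476) and -0.36 ± 0.06 for H2-D1 (0.735 to 0.802; SD, n = 4). Neutrophil-like over T cell-like cells it was 4.53 ± 0.88, -1.66 ± 0.15 and -0.47 ± 0.14. Hence H2-Q10 and H2-K1 differed in opposite directions in every library, by far more than the spread over libraries. These are classes rebuilt from the same cells, so the contrasts are descriptions without a test.

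Of the 8 genes, 1 (H2-Q10) was over 1.5-fold higher and 2 (H2-K1 and B2m) were over 1.5-fold lower in neutrophil-like than in macrophage-like cells in 4 of 4 libraries, where 43.3% of all genes tested passed in either direction (11.5% higher and 31.8% lower). Against T cell-like cells, H2-Q10 was again higher and H2-K1 and Nlrc5 were lower in 4 of 4 libraries, beside 56.1% of all genes (13.1% higher and 43.0% lower). The light chain B2m was at 0.528 to 0.611 of its macrophage-like level. For the transporter subunits and the loading factor the mean log2 ratios over macrophage-like cells were -0.14 ± 0.09 (Tap1), 0.11 ± 0.44 (Tap2) and -0.28 ± 0.30 (Tapbp), the latter pair within their spread over libraries. Nlrc5 was near its macrophage-like level, at 0.18 ± 0.39, and at -1.10 ± 0.60 against T cell-like cells (SD, n = 4).

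Among the other 32 pathway genes counted, 2 were higher and 14 lower in neutrophil-like than in macrophage-like cells in 4 of 4 libraries. The higher pair was H2-T24, a T region heavy chain, at a mean log2 ratio of 1.49 ± 0.25, and Irf1, an interferon regulatory factor that binds class I promoters, at 1.54 ± 0.23. The lower ones included H2-M2 (-6.84 ± 0.52), H2-M3, which presents formylated peptides (-3.41 ± 0.16), the CD1 molecule Cd1d1 (-2.68 ± 0.45), the chaperone Calr (-2.34 ± 0.49), Mr1, which presents vitamin B metabolites (-4.74 ± 0.90), and Ciita, the class II counterpart of Nlrc5 (-5.66 ± 0.62). Of the Q region neighbours of H2-Q10, H2-Q6 and H2-Q7 were lower in neutrophil-like than in macrophage-like cells, at -1.32 ± 0.58 and -1.84 ± 0.55. H2-Q4 was within its spread over libraries, at -0.25 ± 0.41. H2-Q2 had UMIs in both classes in 1 library, at 3.74-fold, and H2-Q1 in 0. Against T cell-like cells the ratios of H2-Q2, H2-Q4, H2-Q6 and H2-Q7 were at most 0.518, 0.418, 0.131 and 0.0846. H2-Q7 was at 66.9, 35.0, 66.6 and 53.1 CPM in neutrophil-like cells against 296, 153, 283 and 107 CPM in macrophage-like and 831, 690, 787 and 711 CPM in T cell-like cells.

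Over 48 profiles of class and library with at least 50 cells, the 5 genes whose log2 levels followed H2-Q10 most closely were Cxcr2 (Pearson r = 0.90), Mmp9 (0.88), G0s2 (0.87), Gm17619 and 2810474O19Rik (0.86 each) among 11855 genes. Cxcr2, Mmp9 and G0s2 were among the markers used to name the class. H2-Q10 had r = -0.17 with H2-K1 and 0.15 with H2-D1. For H2-K1 the closest were H2-T22 (0.93), B2m (0.86), H2-T23 (0.84), H2-Q7 and the NK receptor ligand Clec2d (0.83 each), that is, mostly class I genes. Nlrc5 followed Malt1 (0.91), Gpr132 (0.90), Gm13157, Stat5a and Nfkb1 (0.89 each), with 0.86 for Tap1 and 0.78 for Tap2. The profiles share libraries, depth and cell classes, so these coefficients are descriptions over non-independent points.

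The comparison of OVA with no OVA asks which class I genes differed in the allergic mucosa. Between Vehicle-OVA and Vehicle, 10 of 24 values (8 genes in the classes neutrophil-like, T cell-like and macrophage-like) were past 1.5-fold with an interval that excluded 1. The share of all genes past it was 68.4% in neutrophil-like cells, 41.0% in the macrophage-like class and 48.1% in the T cell-like class, where 4, 3 and 3 of the 8 members passed, so the members were not called more often than other genes. The median log2 ratio of all genes was itself shifted, by -0.64, 0.21 and 0.39 in the same classes. Between Ribavirin-OVA and Ribavirin, 5 of 24 values were past 1.5-fold, beside 40.0%, 38.8% and 47.0% of all genes and median shifts of 0.30, 0.25 and 0.39.

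H2-D1 was lower with OVA in each of the 11 classes. In macrophage-like cells it was 2394 CPM in Vehicle and 1405 in Vehicle-OVA (ratio 0.587, 0.580 to 0.594), and 2391 in Ribavirin and 1561 in Ribavirin-OVA (0.653, 0.644 to 0.662). Within 4 macrophage-like clusters with at least 50 cells in each library, H2-D1 was below 1 in 4 of 4 in both pairs. The ratios there ran from 0.618 to 0.743 under vehicle and from 0.690 to 0.801 under ribavirin, past 1.5-fold in 1 and 0 clusters. In neutrophil-like cells the ratios were 0.640 (0.631 to 0.650) and 0.659 (0.645 to 0.673), and in T cell-like cells 0.729 and 0.789. The ratio was below 1, and below the median ratio of all genes, in 11 of 11 classes in both pairs, and past 1.5-fold in 6 and 4 of them. Summed over these classes, 13.4% and 8.02% of all genes were past 1.5-fold lower (4.52% to 55.6% and 3.61% to 10.4% in single classes). Relative to the median ratio of all genes, H2-D1 of neutrophil-like cells in the vehicle pair was at -0.01 on the log2 scale, and at -0.90 in the ribavirin pair. In macrophage-like cells H2-D1 was short of 1.5-fold with a mitochondrial limit of 5% (log2 ratios of -0.39 and -0.30 in the vehicle and ribavirin pair) and with marked doublets kept (-0.51 and -0.40).

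H2-K1 was past 1.5-fold in no class of either pair. Its ratios ran from 0.808 to 1.17 under vehicle and from 0.841 to 1.27 under ribavirin. The H2-D1 to H2-K1 ratio, which does not depend on the total of a library, was 1.76, 1.23, 2.10 and 1.10 in the neutrophil-like class (Vehicle, Vehicle-OVA, Ribavirin and Ribavirin-OVA). The corresponding values were 0.981, 0.629, 1.06 and 0.662 for the macrophage-like class and 0.820, 0.512, 0.848 and 0.526 for the T cell-like class. It was lower in both OVA libraries than in both libraries without OVA in 11 of 11 classes, and also in 22 of 22 clusters with at least 50 cells in each library. Libraries with and without OVA thus did not overlap on this ratio in any of the 11 classes, although each side consisted of 2 libraries. With marked doublets kept, which also changed the clustering, the neutrophil-like ratio was 1.75 in Vehicle and 1.78 in Vehicle-OVA. At Leiden resolution 0.5 it was 1.75 and 1.77. Without clusters over 80% from 1 library it was 1.65 in Vehicle-OVA and 1.69 in Ribavirin. Some gaps within clusters were small, such as 0.645 in Vehicle and 0.641 in Vehicle-OVA for the epithelial-like cluster 21.

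**Figure D4:**
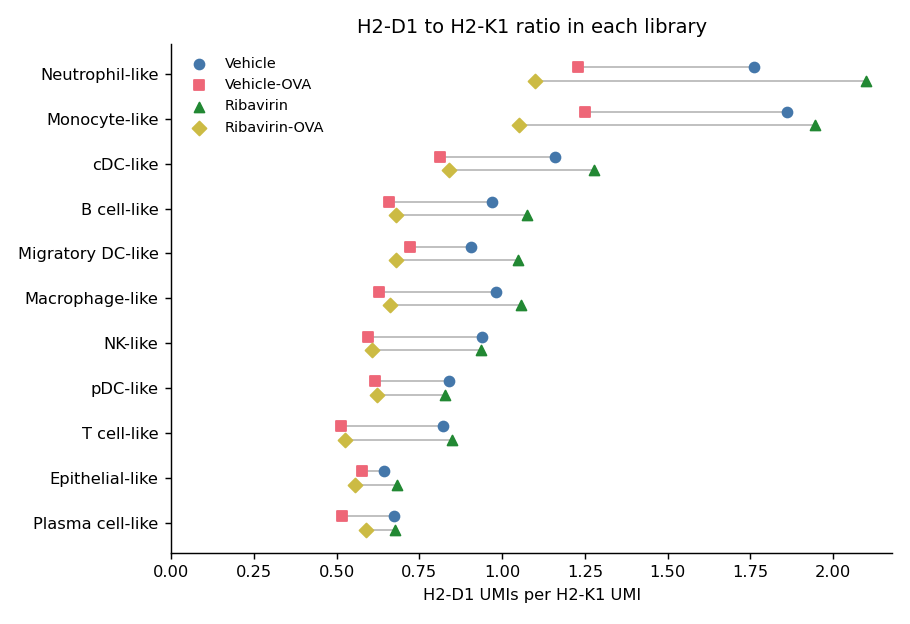
H2-D1 UMIs per H2-K1 UMI (x) in 11 cell classes (y), 1 point per library, with a grey line joining the libraries with and without OVA under vehicle (upper) and under ribavirin (lower). Both OVA points lie left of both points without OVA in 11 of 11 classes.

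Other properties of the RNA moved with OVA in the same libraries. The share of UMIs from ribosomal protein genes was lower in both OVA libraries in 11 of 11 classes, for example 9.91% and 9.53% without OVA and 5.00% and 5.40% with OVA in macrophage-like cells. Across genes, the log2 OVA ratio rose with the log2 length of the longest annotated transcript, with Pearson r = 0.24 and 0.41 in neutrophil-like, 0.29 and 0.32 in macrophage-like and 0.46 and 0.52 in T cell-like cells (vehicle and ribavirin pair), against -0.04 to 0.05 for ribavirin over vehicle. The longest coding transcripts were 1619 bases for H2-K1, 2102 for H2-D1, 1991 for H2-Q10, 860 for B2m, 2898 for Tapbp and 7578 for Nlrc5. The part of either property in the members' ratios was not tested.

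The loading factor and the transactivator were higher with OVA. Tapbp had ratios above 1 in 11 of 11 classes in both pairs, past 1.5-fold in 7 and 8 of them (34.0% and 34.8% of all genes over these classes), and was above the median ratio of all genes in 10 of 11. In macrophage-like cells it was 306 and 514 CPM under vehicle (ratio 1.68, 1.64 to 1.72) and 300 and 515 CPM under ribavirin (1.72, 1.67 to 1.77), and in T cell-like cells the ratios were 1.82 and 1.71. Divided by the median ratio of all genes, these 4 values were short of 1.5-fold, at 0.39 to 0.54 on the log2 scale. Nlrc5 was above 1 in 11 of 11 and 10 of 11 classes, above the median of all genes in 10 and 7, and past 1.5-fold in 9 and 6, where 12.8% to 53.4% and 26.2% to 49.5% of all genes were higher. In T cell-like cells Nlrc5 was 37.4 and 87.3 CPM under vehicle (2.33, 2.11 to 2.58) and 43.1 and 89.99 CPM under ribavirin (2.09, 1.90 to 2.30).

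In plasma cell-like cells, which make antibody and were highest in B2m by median, the light chain was at 7711, 4865, 7599 and 4315 CPM in the order of libraries given above, and the 2 libraries with OVA were below the 2 without. The ratios with OVA were 0.631 (0.622 to 0.640) under vehicle and 0.568 (0.561 to 0.575) under ribavirin, where 6.23% and 8.16% of all genes were past 1.5-fold lower. Of the 11 classes, plasma cell-like cells were the one in which B2m passed 1.5-fold. H2-T23, the heavy chain Qa-1, was at 644, 370, 708 and 367 CPM in the same cells, again lower in both libraries with OVA. Nlrc5 was higher in both, at 2.97 (2.27 to 3.89) and 2.74 (2.13 to 3.56), on 80 to 274 UMIs per library, and Tap1 at 1.66 and 1.89, beside 45.4% and 46.5% of all genes. The class held 1264, 267, 624 and 507 cells, in clusters that differed with OVA. Cluster 16 held 1082, 3, 530 and 2 of them and cluster 24 held 11, 215, 9 and 342. In cluster 27, the one with at least 50 cells on both sides of the ribavirin pair, B2m was at 4075 CPM without OVA and 2876 CPM with it, short of 1.5-fold, so the B2m ratio past 1.5-fold was not seen within a cluster.

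Neutrophil-like cells of the vehicle pair held 4 of the 10 values past 1.5-fold. H2-Q10 was at 0.515 (0.497 to 0.534) and Tap2 at 0.430 (0.404 to 0.457) of the Vehicle level, and Nlrc5 at 1.82 (1.64 to 2.03), besides H2-D1. Divided by the median ratio of all genes, H2-Q10 was at -0.32 and Tap2 at -0.58 on the log2 scale, both short of 1.5-fold, and Nlrc5 was still past it. The ribavirin pair gave 0.852 (0.812 to 0.893) for H2-Q10, 1.13 (1.04 to 1.22) for Tap2 and 0.906 (0.769 to 1.06) for Nlrc5. Because clusters 3 and 8 were mostly Vehicle-OVA, the ratios were also read within the 6 neutrophil-like clusters with at least 50 cells in each library. For the ribavirin pair, H2-Q10 was above 1 in 3 and below 1 in 3 of these clusters (0.918 to 1.26), and H2-D1 was below 1 in 6 (0.526 to 0.967). For the vehicle pair, H2-Q10 was below 1 in 6 of 6 (0.461 to 0.738) and H2-D1 in 6 of 6 (0.464 to 0.785). There Tap2 ran from 0.607 to 1.03 and Nlrc5 from 0.709 to 1.39 in the 5 clusters with enough UMIs. The Nlrc5 ratio past 1.5-fold and the full size of the Tap2 difference were therefore not seen within these clusters. Without the neutrophil-like clusters 3, 8 and 9, the log2 ratios were -0.31 for H2-Q10, -0.44 for H2-D1, -0.59 for Tap2 and -0.05 for Nlrc5, and H2-Q10 and H2-D1 were then short of 1.5-fold, as they were with marked doublets kept (-0.43 each).

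H2-Q10 was higher in Vehicle-OVA than in Vehicle by 2.95-fold (2.38 to 3.67) in macrophage-like and 2.09-fold (1.64 to 2.66) in T cell-like cells. These rest on 140 and 223 UMIs in macrophage-like and 190 and 113 UMIs in T cell-like cells, and S100a8 relative to neutrophil-like cells was higher in the same library, at 2.57% against 0.611% and 2.09% against 0.579%. With marked doublets kept, the T cell-like value was 0.23 on the log2 scale. Tap1 and B2m were within 1.5-fold in the 3 classes, the closest to it being Tap1 in T cell-like cells, at 1.48 and 1.43.

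**Figure D5:**
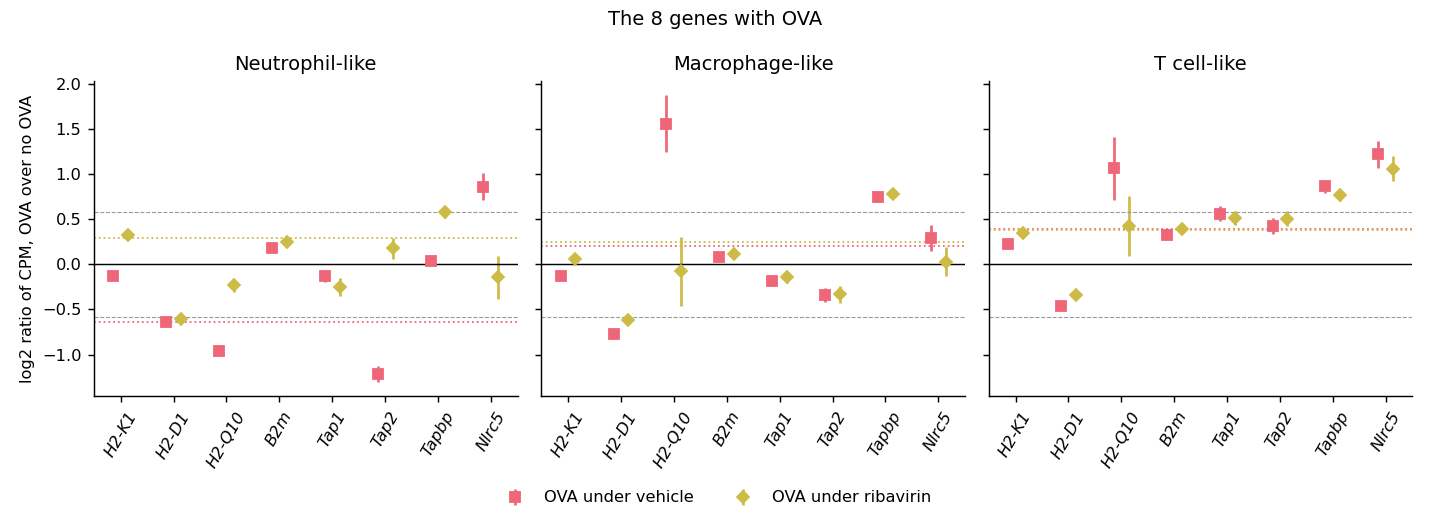
Log2 ratio of CPM with OVA over without OVA (y) for the 8 genes (x) in macrophage-like, T cell-like and neutrophil-like cells, under vehicle (squares) and ribavirin (diamonds), with exact 95% intervals, dashed lines at 1.5-fold and dotted lines at the median of all genes. H2-D1 lies below 0 in all 6 comparisons, from 0.587 to 0.789 as a ratio.

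The other pathway genes were counted in the same 3 classes. In neutrophil-like cells 0 of 25 tested were higher and 17 lower under vehicle (12.8% and 55.6% of all genes), with a median log2 ratio of -0.96 against -0.64 for all genes. Under ribavirin 1 was higher and 3 lower of 25 (31.1% and 8.87%), with medians of -0.16 and 0.30. Macrophage-like cells had 3 higher and 11 lower of 28 under vehicle (28.5% and 12.5%) and 4 and 9 under ribavirin (28.9% and 9.88%), with list medians of -0.35 and -0.37. T cell-like cells had 6 higher and 4 lower of 27 in each pair, beside 38.8% and 9.24% of all genes under vehicle and 37.5% and 9.46% under ribavirin.

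The immunoproteasome subunits Psmb8, Psmb9 and Psmb10, which replace the constitutive catalytic subunits and favour class I peptides, were past 1.5-fold lower in the 3 classes in both pairs. Psmb8 in macrophage-like cells was 728, 226, 615 and 209 CPM over the 4 libraries (ratios 0.310 and 0.340), and in T cell-like cells 733, 293, 656 and 297 CPM (0.3999 and 0.453). In neutrophil-like cells its ratios were 0.1495 and 0.443, those of Psmb9 0.242 and 0.557 and those of Psmb10 0.153 and 0.591. The proteasome activators Psme1 and Psme2 were at 0.287 and 0.291 and the promoter-binding subunit Rfxap at 0.289 in the vehicle pair. Canx, the chaperone of new heavy chains, was the opposite case, at 1.91 and 2.02 in macrophage-like cells, with ratios of 1.81 and 1.79 for the T cell-like class. The longest coding transcripts of Psmb8, Psmb9 and Psmb10 were 1628, 1352 and 1311 bases and that of Canx was 4281. Ratios of these genes were read over whole classes and not within clusters. Macrophage-like cluster 4 held 2515, 153, 1656 and 84 cells (Vehicle, Vehicle-OVA, Ribavirin and Ribavirin-OVA) and cluster 6 held 61, 2257, 90 and 1505. The part of this difference between clusters in the ratios was not tested.

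Other heavy chains, peptidases and regulators were past 1.5-fold with OVA in macrophage-like cells, in T cell-like cells or in both. Their ratios, too, were read over whole classes and not within clusters, which differed with OVA in macrophage-like cells. In macrophage-like cells H2-T23, the heavy chain Qa-1, was at 0.459 and 0.502, H2-Q4 at 0.516 and 0.468 and H2-Q7 at 0.516 and 0.378 (vehicle and ribavirin pair). H2-Q6 was at 0.440 and Mr1 at 2.27 in the ribavirin pair, and Ciita at 0.420 in the vehicle pair. In T cell-like cells H2-T24 was at 2.84 and Lnpep, a trimming peptidase, at 1.66 in the vehicle pair, and Rfx5, a subunit of the promoter-binding RFX complex, at 1.64. Lnpep was at 1.69, Erap1, the trimming peptidase of the endoplasmic reticulum, at 1.90, H2-Q6 at 1.55 and Ciita at 0.443 in the ribavirin pair.

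The comparison of ribavirin with vehicle without OVA gave the fewest differences. Of 24 values 1 was past 1.5-fold, H2-Q10 in macrophage-like cells at 1.65 (1.31 to 2.07), which rests on 140 and 177 UMIs and was at 0.12 on the log2 scale with marked doublets kept. Of all genes, 13.1%, 3.66% and 4.37% were past it in neutrophil-like cells, the macrophage-like class and the T cell-like class. H2-K1, H2-D1 and B2m had ratios of 0.893 to 1.07 in the 3 classes, and neutrophil-like H2-Q10 was at 0.943 (0.911 to 0.976). Of the other pathway genes, 4 of 26 were lower in neutrophil-like cells (8.25% of all genes), namely Tapbpl (0.589), Psmb10 (0.617), Psmb8 (0.626) and Psme2 (0.663), and 0 of 28 and 0 of 27 were past 1.5-fold in macrophage-like and T cell-like cells.

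With OVA, 4 of 24 values differed between Ribavirin-OVA and Vehicle-OVA, 3 of them in neutrophil-like cells, where 71.0% of all genes were past 1.5-fold and the median of all genes was 0.77 on the log2 scale. H2-Q10 was 1.56 (1.48 to 1.64), Tap2 1.86 (1.71 to 2.01) and Nlrc5 0.530 (0.456 to 0.613). This comparison shares the Vehicle-OVA library with the OVA comparison under vehicle, and its opposite signs for these 3 genes are not separate evidence. Within the 6 neutrophil-like clusters H2-Q10 was above 1 in 6 of 6 (1.34 to 3.32), Tap2 ran from 0.839 to 1.42 and Nlrc5 from 0.825 to 1.10 in 4 clusters. Relative to the median of all genes, however, H2-Q10 was at -0.13 on the log2 scale, and without clusters 3, 8 and 9 its log2 ratio was -0.09.

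In macrophage-like cells H2-Q10 was 0.530 (0.410 to 0.680; 10.1% of all genes past 1.5-fold), or -0.49 on the log2 scale with an interval that included 0 when marked doublets were kept, and in T cell-like cells 0 of 8 genes were past 1.5-fold (5.74% of all genes). H2-K1, H2-D1, B2m, Tap1, Tap2, Tapbp and Nlrc5 had ratios from 0.975 to 1.11 in macrophage-like and from 1.03 to 1.06 in T cell-like cells. Of the other pathway genes, 14 of 24 were higher and 0 lower in neutrophil-like cells, beside 64.9% and 6.1% of all genes, led by Rfxank (3.04), Erap1 (2.69), Psmb10 (2.39), Tapbpl (2.05) and Rfxap (2.03). Macrophage-like cells had H2-M2 (1.82), Mr1 (1.70) and Ciita (1.63) higher and H2-Q6 (0.653) lower of 28, beside 6.18% and 3.93% of all genes, and T cell-like cells H2-T24 (0.544) lower of 27, beside 3.11%.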

How the data were processed

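CD45+ cells of the nasal mucosa were profiled by 10x 3′ single-cell RNA sequencing in 4 libraries, 1 per group. The authors made the deposited values, which are raw UMI counts per gene and barcode, with Cell Ranger 5.0.0 and mm10 per the submitters' processing notes. The gene annotation is not given in the sources used here.

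Barcodes with at least 200 genes, 500 UMIs and under 10% mitochondrial UMIs were kept. Doublets were marked by comparing cells with simulated doublets, and marked cells were removed (5.53%, 4.69%, 3.18% and 0.612% of cells for Vehicle, Vehicle-OVA, Ribavirin, Ribavirin-OVA), which left 83955038 to 155369924 UMIs per library. The 4 libraries were clustered together without batch correction, on 2000 variable genes from which the class I pathway genes were left out, 30 principal components, 15 neighbours and Leiden resolution 1.0 (leidenalg 0.10.2, Python 3.11.15, numpy 2.4.6, scipy 1.17.1). A cluster was named X-like after the marker list with the highest mean log2 fold over the median cluster, when at least 3 of its markers were at least 2-fold above that median and seen in at least 10% of cells, and when its 10 leading genes did not hold as many or more markers of another class. This naming rule was set after the clustering was seen, and an earlier rule was kept as an alternative. The T cell markers Trac, Trbc1 and Trbc2 and the pathway genes H2-Q8, H2-Q9, H2-T9 and H2-T10 were not found among the genes counted under these symbols.

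For each class in each library the UMIs of a gene were summed and given per 1000000 UMIs of that class (CPM). Levels have exact Poisson intervals, shares exact Clopper-Pearson intervals and ratios exact conditional binomial intervals at 95%. A ratio was called when past 1.5-fold with an interval that excluded 1, for genes with 50 or more UMIs in the compared libraries. The ratio code was checked on simulated counts. Reads without a replicate library give no test, and PCR and capture error are not in the intervals.

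Named genes were the 8 members, pathway genes past 1.5-fold (up to 6 per comparison by size, or all where 5 or fewer), the 5 genes most correlated with H2-Q10, H2-K1 and Nlrc5 over log2(CPM + 1), and 3 leading genes per neutrophil-like cluster. Psmb9, Psmb10, H2-T23 in plasma cell-like cells, the levels of H2-M2 and H2-Q7, and the class ratios of the Q region genes were also given, chosen after their values were seen. Members and gene lists were chosen with earlier results of these data known. Promoters were matched for 6 of 8 members. Alternatives covered filters, doublets, resolution, clustering per library, class calls per cell, scaling, the fold limit, naming and clusters dominated by 1 library. The alternatives on naming, on clusters dominated by 1 library, on leaving out a library and on scaling by the median ratio were chosen after the data were seen, as was the H2-D1 to H2-K1 ratio.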

Additional observations from a re-analysis of the deposited data

Results flagged for a closer look

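In neutrophil-like cells the H2-Q10 ratio of ribavirin over vehicle was 0.943 without OVA and 1.56 with OVA, so the 2 pairs of libraries differed in direction. Tap2 in neutrophil-like cells was at 0.430 with OVA under vehicle and 1.13 under ribavirin, and its ratio of ribavirin over vehicle was 0.707 without OVA and 1.86 with OVA. The median log2 ratio of all genes in neutrophil-like cells changed sign between the same pairs. It was -0.22 without OVA and 0.77 with OVA for ribavirin over vehicle. For OVA it was -0.64 under vehicle and 0.30 under ribavirin. The part of this shift in the flagged ratios was not tested. In macrophage-like cells H2-Q10 over vehicle was 1.65 without OVA and 0.530 with OVA, on 89 to 223 UMIs per library. With 1 library per group none of these differences was tested. Each pair of Tap2 ratios uses the same 4 libraries and they are not separate observations. A further 7 member ratios lay on opposite sides of 1 in the 2 pairs with neither past 1.5-fold.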

How the results depend on the processing

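No paired analysis was possible because each group has 1 library, so that the groups compared share a single replicate number. The results rest on 1 library per group, rebuilt classes and clusters that differ between libraries, and the cause of the changes below was not tested. Leaving out each library in turn, the mean log2 ratio of neutrophil-like over macrophage-like cells ran from 5.30 to 6.14 for H2-Q10, from -1.30 to -1.21 for H2-K1 and from -0.38 to -0.34 for H2-D1, and the H2-Q10 share from 9.04% to 10.0%. These values kept their direction under each alternative run. H2-K1 moved by more than its spread over libraries to -1.37 with a mitochondrial limit of 5%, -1.41 with doublets kept and -1.37 with clusters named from leading genes over all other cells. H2-D1 moved to -0.54, -0.43 and -0.63 under the same 3 alternatives, to -0.25 as the mean of single-cell CPM and to -0.47 outside ribosomal and mitochondrial genes. The number of member values past 1.5-fold with OVA under vehicle was 6 with doublets kept and 4 past 2-fold, against 10. With OVA under ribavirin it was 1 past 2-fold, against 5. For ribavirin without OVA it was 0 with doublets kept and 0 past 2-fold, against 1. For ribavirin with OVA, against 4, it was 1 with doublets kept, 1 at Leiden resolution 0.5, 2 with class I genes allowed among the variable genes, 1 with naming from leading genes, 1 without clusters over 80% from 1 library and 0 past 2-fold. The order of the H2-D1 to H2-K1 ratio held in 3 of 3 classes except at 2 of 3 with doublets kept and at resolution 0.5, neutrophil-like cells being the exception. Log2 ratios that changed sign were Nlrc5 in neutrophil-like cells with OVA under vehicle, at -0.021 at resolution 0.5 and -0.049 without clusters over 80% from 1 library, and H2-Q10 in neutrophil-like cells for ribavirin with OVA, at -0.088 without those clusters and -0.13 when divided by the median ratio. Of 20 member values past 1.5-fold, 10 (doublets kept) to 20 stayed past it in the same direction under the alternatives.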

Other observations

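H2-M2, a heavy chain gene of the M region, was found in macrophage-like cells at 51.7, 36.9, 36.6 and 67.2 CPM (Vehicle, Vehicle-OVA, Ribavirin, Ribavirin-OVA) and in neutrophil-like cells at 0.762, 0.240, 0.269 and 0.548 CPM, the latter on 5 to 15 UMIs per library. In T cell-like cells it had 1 to 7 UMIs per library.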
